A study of Arabidopsis thaliana with 3 samples.

Results

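The RBOH family of *Arabidopsis thaliana* comprises the 10 respiratory burst oxidase homologs RBOHA to RBOHJ, which were taken by their locus identifiers and make up 10 of the 33446 genes listed in a table of RNA levels from roots. Of these, 5 were listed under their locus identifier and 5 under a symbol or synonym, RBOHC as RHD2. Roots were harvested from 14-day-old Col-0 seedlings that carried the INTACT transgene, a nuclear envelope tag with GFP and a biotin acceptor driven by the constitutive 35S promoter. RNA from whole roots was sequenced in 3 libraries of this single condition, without untransformed plants in the table. Several independent homozygous lines were made, and which of them gave the RNA is not given in the sources used here.

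RBOH proteins are NADPH oxidases of the plasma membrane. They take electrons from cytosolic NADPH and pass them through FAD and haem to oxygen outside the cell, which gives superoxide and, after dismutation, hydrogen peroxide. Calcium binds EF-hands in the N-terminal part, and kinases phosphorylate the same part. In roots, the peroxide is known for its roles in the tip growth of root hairs, in lignin polymerization at the Casparian strip of the endodermis and in responses to microbes.

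Levels are given in RPKM, which scales the reads of a gene by its length and by the size of the library. Since 1 value per gene stands for the 3 libraries, how far the libraries differed is not seen here, and no SD or test accompanies the levels. From the spacing of the low values, the table corresponded to about 118537659 reads in a single set of counts. Each interval given here is an exact Poisson 95% confidence interval of the reads estimated at this size from the annotated exon length, and covers counting error only. Of the 4311 low values used, 64.4% fell within 0.05 of a whole read. The size was chosen to place these same values near whole reads, so this share is no separate check of it. Since whole roots were sequenced, a low level in many cells and a high level in few cells cannot be told apart.

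Reads of 61 bases were counted, so the alike parts of the family were compared at this length. No annotated exon window of 61 bases of any of the 10 members occurred as an exact match at another place of the TAIR10.1 genome. The longest exact run shared by the transcripts of 2 members was 40 bases, between RBOHH and RBOHJ, and the other 44 pairs shared at most 26 bases. The aligned coding window of 61 bases with the fewest summed differences from RBOHD is printed as an example of how reads of paralogs differ. The window holds no gap and lies within a single exon of each gene, and single pairs can be more alike elsewhere. It is given 5′ to 3′ on the coding strand in the order of RNA level, with TAIR10.1 coordinates, and capitals mark bases that differ from RBOHD.
RBOHD (chr5:19399917-19399977, plus strand): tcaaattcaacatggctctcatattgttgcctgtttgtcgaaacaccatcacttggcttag
RBOHC (chr5:20760605-20760665, minus strand): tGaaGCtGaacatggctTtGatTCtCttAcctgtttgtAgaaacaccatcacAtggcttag
RBOHF (chr1:23773024-23773084, plus strand): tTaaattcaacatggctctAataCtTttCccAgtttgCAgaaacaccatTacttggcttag
RBOHE (chr1:6646702-6646762, plus strand): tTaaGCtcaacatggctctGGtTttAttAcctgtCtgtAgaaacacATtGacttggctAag
RBOHG (chr4:12881965-12882025, minus strand): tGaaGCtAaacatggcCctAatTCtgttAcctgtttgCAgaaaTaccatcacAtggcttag
RBOHI (chr4:6843135-6843195, minus strand): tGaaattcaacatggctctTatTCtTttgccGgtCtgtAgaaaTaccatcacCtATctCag
RBOHB (chr1:2934268-2934328, plus strand): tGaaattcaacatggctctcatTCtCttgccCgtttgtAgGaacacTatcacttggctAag
RBOHA (chr5:2338138-2338198, minus strand): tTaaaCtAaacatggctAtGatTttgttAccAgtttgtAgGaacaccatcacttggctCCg
RBOHH (chr5:24162008-24162068, plus strand): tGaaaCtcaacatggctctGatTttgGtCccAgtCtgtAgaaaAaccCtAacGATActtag
RBOHJ (chr3:16835917-16835977, minus strand): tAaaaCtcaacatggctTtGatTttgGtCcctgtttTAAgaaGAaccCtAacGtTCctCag
Here the other members differed from RBOHD at 9 to 18 bases. The 2 members nearest to each other in this window still differed at 7 bases.

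RNA of 8 of the 10 RBOH genes was above 1 RPKM, the level at which the study called a gene expressed. This threshold was passed by 56.0% of all listed genes and by 68.4% of the 26394 protein-coding genes. The levels fell into a graded series of 8 members between 1.64 and 34.9 RPKM and a pair of members under 0.1 RPKM. Between the eighth and the ninth member the level dropped 103-fold, whereas the first and the eighth member differed 21.3-fold. The summed level of the family was 103.8 RPKM, of which the first 3 members held 75.5% and the last 2 held 0.0272%. The median of the 10 members was 4.98 RPKM, against 2.21 RPKM over all listed genes and 4.85 RPKM over protein-coding genes.

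**Figure D1:**
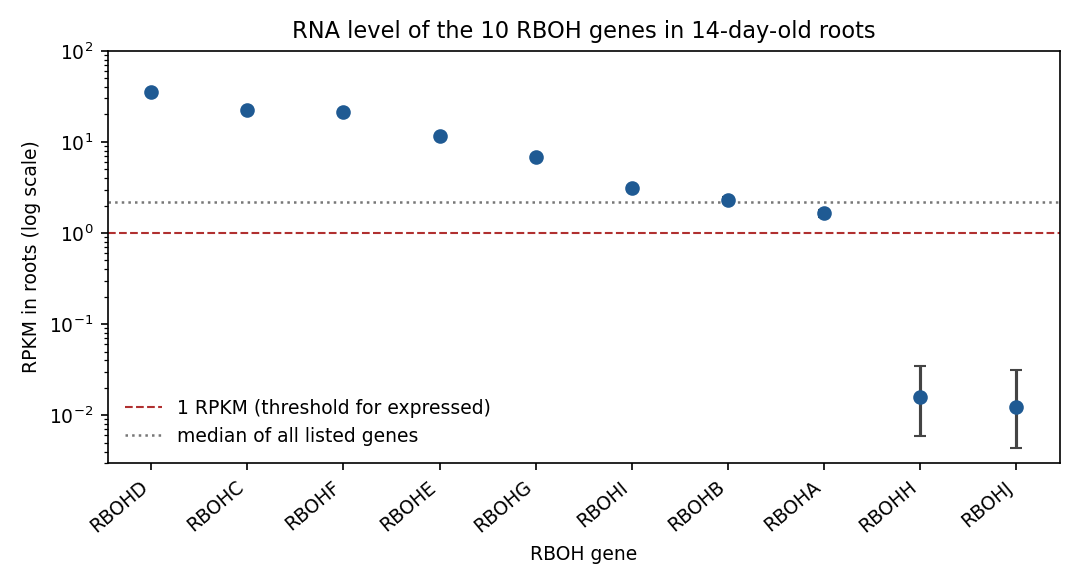
RPKM in roots of each of the 10 RBOH genes on a log axis, from the highest to the lowest, with exact Poisson 95% intervals of the estimated reads as bars (smaller than the points for the first 8). The first 8 genes lie between 1.64 and 34.9 RPKM, and RBOHH and RBOHJ lie near 0.01 RPKM with wide, overlapping intervals.

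RBOHD (AT5G47910, chromosome 5 from 19397041 to 19402061, plus strand) had the highest level of the family, 34.9 RPKM (interval 34.4 to 35.5). RBOHD gives the oxidative burst after pathogen patterns are perceived and takes part in signals that travel between organs. It held 33.6% of the summed level of the family and ranked 3450 of all listed genes. No member reached the highest 10% of listed genes, which began at 36.0 RPKM, and RBOHD came nearest to it. The next member was 1.57-fold lower.

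RBOHC (AT5G51060, chromosome 5 from 20757199 to 20762461, minus strand) was listed at 22.2 RPKM (21.8 to 22.7). Its mutant *root hair defective 2* forms short hairs, since RBOHC keeps up the calcium gradient at the growing tip. RBOHF (AT1G64060, chromosome 1 from 23769774 to 23776984, plus strand) was listed at 21.3 RPKM (20.9 to 21.7). RBOHF supplies the peroxide for lignin at the Casparian strip, and acts with RBOHD in abscisic acid signalling of guard cells. RBOHC was higher than RBOHF by 4.55%. The counting intervals did not overlap with the exon length but did with the coding length (21.7 to 22.8 for RBOHC and 20.8 to 21.8 for RBOHF), so these neighbours are not told apart here. Both genes, with RBOHD, were the 3 members in the highest 25% of listed genes, above 12.5 RPKM.

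RBOHE (AT1G19230, chromosome 1 from 6643942 to 6649375, plus strand), known for its part in the degeneration of the tapetum in anthers, was listed at 11.5 RPKM (11.1 to 11.8). It was the last of 4 members above the median of expressed genes, 10.5 RPKM. RBOHG (AT4G25090, chromosome 4 from 12878667 to 12883805, minus strand) followed with 6.87 RPKM (6.60 to 7.15). RBOHI (AT4G11230, chromosome 4 from 6840473 to 6845627, minus strand) had 3.09 RPKM (2.92 to 3.28). These 3 members span the middle of the series, and each step between them, and from RBOHF to RBOHE, was between 1.67-fold and 2.22-fold.

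RBOHB (AT1G09090, chromosome 1 from 2932739 to 2936586, plus strand), which has a role in the after-ripening of seeds, was listed at 2.29 RPKM (2.13 to 2.46), close to the median of all listed genes. RBOHA (AT5G07390, chromosome 5 from 2335895 to 2339913, minus strand) was the lowest of the expressed members, with 1.64 RPKM (1.52 to 1.78). Its interval lay above 1 RPKM but wholly below 2 RPKM. The intervals of RBOHI, RBOHB and RBOHA did not overlap, though RBOHB overlaps a gene of higher level, as given with the neighbouring genes. Together with RBOHG, these members held 13.4% of the summed level.

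RBOHH (AT5G60010, chromosome 5 from 24160270 to 24165052, plus strand) was listed at 0.0159 RPKM (0.00591 to 0.0351) and RBOHJ (AT3G45810, chromosome 3 from 16832726 to 16837792, minus strand) at 0.0124 RPKM (0.00439 to 0.0316). Both act redundantly in the growth of pollen tubes. With the exon length the values correspond to 5.93 reads of RBOHH and 4.57 reads of RBOHJ, from which the intervals were made after rounding. With the coding length they come to 5.015 and 4.011 reads, nearer to whole numbers, and the intervals become 0.00515 to 0.0370 RPKM and 0.00336 to 0.0316 RPKM. The intervals overlapped with either length, and a difference between them was not detectable at this depth. RBOHD was 2196-fold higher than RBOHH and 2826-fold higher than RBOHJ, ratios whose error is set by these few reads. Neither was listed at exactly 0, as 21.0% of all listed genes were, and a further 13.2% of genes lay above 0 and under 0.1 RPKM with them.

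**Figure D2:**
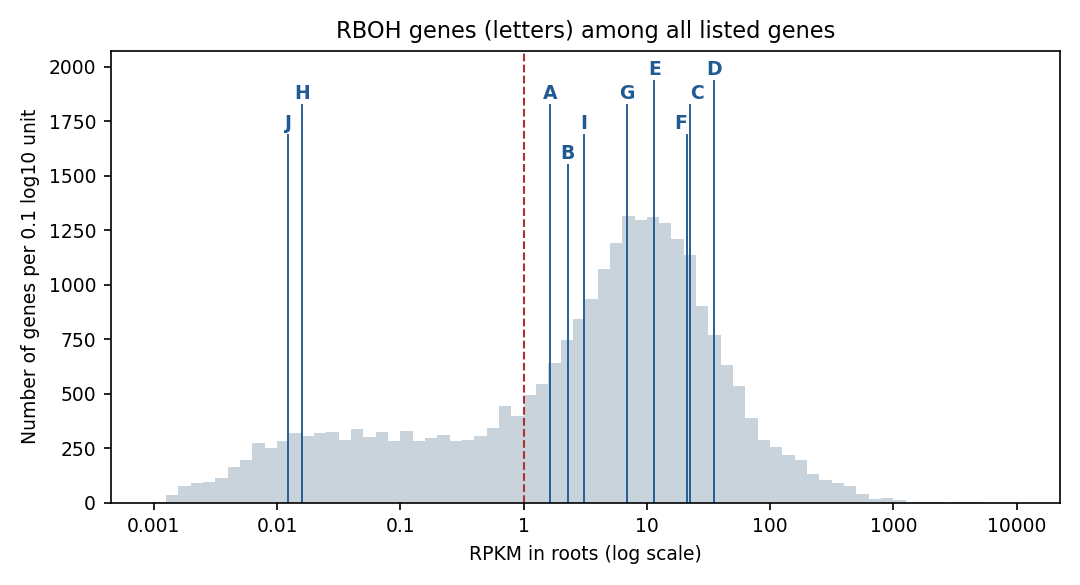
Histogram of RPKM in roots on a log axis for the listed genes within the axis range, as the number of genes per 0.1 log10 unit, with a line and letter for each RBOH gene and a dashed line at 1 RPKM. The lines of G and E lie on the peak of the distribution, those of D, C and F right of it, those of I, B and A left of it, and those of H and J in the flat low tail.

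The levels were set beside the relatedness of the proteins, translated from the coding sequences of TAIR10.1. The proteins range from 843 residues in RBOHB to 952 in RBOHE. Over the 45 pairs, identity ran from 44.1% to 83.5%, with a median of 50.1%. Identical residues in all 10 proteins were counted at 205 positions, unevenly spread. None lay in the first 100 residues of RBOHD, the variable N-terminal part, whereas 35 lay in residues 801 to 900, in the C-terminal part that binds the nucleotides.

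The closest relatives had levels that differed from 1.29-fold to 15.3-fold. RBOHH and RBOHJ, with 83.5% identity, both lay near 0.01 RPKM. RBOHC and RBOHG were next, with 72.5% identity, and RBOHC was 3.24-fold higher. RBOHC and RBOHA shared 65.0% of aligned residues, and RBOHC was 13.6-fold higher. RBOHD and RBOHC, with 63.7% identity, were the closest pair in which both genes were among the 3 highest. In RBOHF and RBOHI (61.4%) RBOHF was 6.88-fold higher, and in RBOHD and RBOHB (61.3%) RBOHD was 15.3-fold higher. RBOHE was nearest to RBOHF, with 54.9% identity, and RBOHF was 1.86-fold higher. The 7 pairs share members and give no independent test.

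**Figure D3:**
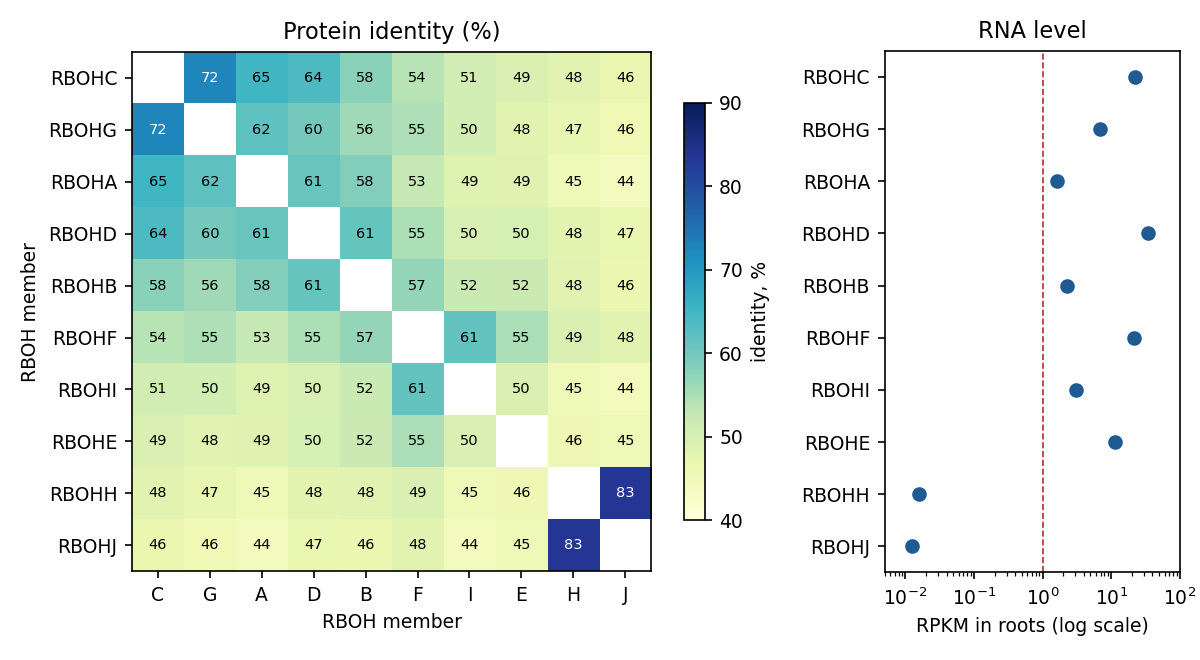
Left, pairwise identity of the 10 RBOH proteins in percent of aligned residues (darker is more alike). Right, RPKM of the same genes in roots on a log axis with a dashed line at 1 RPKM: the pair with the highest identity, RBOHH and RBOHJ at 83.5%, is also the pair under 0.1 RPKM, whereas RBOHC lies well above its close relatives RBOHG and RBOHA.

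The 300 bases before the annotated start of each gene were compared within the family. RBOHH and RBOHJ shared an exact run of 20 bases, and no other pair shared more than 13 bases (median 9 over all pairs). Both windows are printed, 5′ to 3′ along the gene and ending at the base before the start in TAIR10.1, since these genes had the lowest levels. Capitals mark the shared run.
RBOHH (chr5:24159970-24160269, plus strand): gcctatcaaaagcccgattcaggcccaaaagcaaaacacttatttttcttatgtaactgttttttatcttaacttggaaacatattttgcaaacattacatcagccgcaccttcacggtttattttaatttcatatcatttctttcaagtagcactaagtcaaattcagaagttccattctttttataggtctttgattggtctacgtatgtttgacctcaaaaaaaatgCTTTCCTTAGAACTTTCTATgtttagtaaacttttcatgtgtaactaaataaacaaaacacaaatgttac
RBOHJ (chr3:16837793-16838092, minus strand): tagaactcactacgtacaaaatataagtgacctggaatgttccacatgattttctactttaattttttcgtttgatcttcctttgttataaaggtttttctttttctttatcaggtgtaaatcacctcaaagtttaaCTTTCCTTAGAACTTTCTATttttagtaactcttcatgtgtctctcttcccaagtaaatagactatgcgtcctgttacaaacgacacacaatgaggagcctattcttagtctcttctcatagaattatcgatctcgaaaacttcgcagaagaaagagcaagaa
The run lay from 70 to 51 bases before the start of RBOHH and from 163 to 144 bases before that of RBOHJ. The run describes the likeness of the windows and was not tested for any effect on RNA.

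The window of RBOHD, the highest member, is shown with the core of the W-box, TTGAC, in capitals. This core is bound by WRKY transcription factors of defence responses.
RBOHD (chr5:19396741-19397040, plus strand): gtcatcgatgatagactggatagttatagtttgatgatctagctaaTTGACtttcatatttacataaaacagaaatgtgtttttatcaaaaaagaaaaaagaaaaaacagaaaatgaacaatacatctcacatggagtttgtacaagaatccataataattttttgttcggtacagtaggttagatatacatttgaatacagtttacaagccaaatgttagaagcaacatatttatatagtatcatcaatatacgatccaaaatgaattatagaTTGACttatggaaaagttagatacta
It occurred at 2 places in RBOHD on the strand of the gene, 26 to 22 and 254 to 250 bases before the start. On either strand, the core was found in 6 of the 10 members (RBOHA, RBOHB, RBOHD, RBOHE, RBOHG and RBOHH), against 50.4% of 27443 nuclear protein-coding promoters of the same length. RBOHB held 3 copies, RBOHA, RBOHD and RBOHH held 2 each, and RBOHE and RBOHG held 1 each. RBOHC, RBOHF, RBOHI and RBOHJ held none. An effect of this core on RNA was not tested. The G-box CACGTG was in 0 of the 10 windows, against 7.09% of all promoters. The root hair element, a motif of root hair promoters, was likewise in 0 of 10, against 0.915%, also in RBOHC, where only this window was searched.

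Neighbouring genes had levels unlike those of several members. RBOHG lies 494 bp downstream of FSD1 (AT4G25100), an iron superoxide dismutase gene on the same strand, and was listed at 6.87 RPKM, against 207 RPKM for FSD1. RBOHI, at 3.09 RPKM, is flanked by AT4G11220 with 84.4 RPKM at 436 bp and AT4G11240 with 35.4 RPKM at 1484 bp. RBOHD, at 34.9 RPKM, follows AT5G47900 on the same strand with 0.00837 RPKM at 1753 bp. Around the pollen genes the nearest genes were below 1 RPKM as well. AT5G60000 before RBOHH was listed at 0 and AT5G60022 after it at 0.115 RPKM, and AT3G45800 and AT3G45820 beside RBOHJ had 0.00478 and 0.453 RPKM.

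The 3′ ends of 4 members overlap a gene on the opposite strand, and the use of strand in counting is not given in the sources used here. The overlap covered 169 bases (5.35% of exon length) in RBOHA with AT5G07380 at 0.111 RPKM, and 133 bases (3.99%) in RBOHE with AT1G19240 at 15.7 RPKM. It covered 59 bases (2.18%) in RBOHB with AT1G09100 at 34.8 RPKM, and 37 bases (1.22%) in RBOHG with AT4G25080 at 1.80 RPKM. If a partner's reads lay evenly along it and were counted for both genes, those in the overlap would amount to 0.760 RPKM in RBOHB, 33.2% of its level, and 0.629 RPKM in RBOHE, 5.48% of its level. In RBOHG and RBOHA they would amount to 0.320% and 0.363%. For RBOHB this is more than its distance to RBOHA, so with such counting the order of these members is uncertain. If reads in an overlap were instead left out of both genes, the listed levels would be too low. Which of these ways of counting was used was not tested. The exons of the other 6 members overlapped no annotated gene.

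Receptors and kinases that act on RBOH proteins were taken as a list of 17 genes. Of the 16 matched, 15 were above 1 RPKM, against 68.4% of protein-coding genes, and their median was 21.9 RPKM. The genes were chosen by name and the share was not tested, and the same holds for the other lists. BIK1, the receptor-like cytoplasmic kinase that phosphorylates RBOHD, had 22.2 RPKM, and its homolog PBL1 had 15.1 RPKM. The calcium-dependent kinases CPK5, CPK6, CPK11 and CPK4 had 65.0, 52.7, 45.9 and 30.3 RPKM, and BAK1, the co-receptor of pattern receptors, had 21.6 RPKM. EFR, the receptor of the bacterial elongation factor Tu, was the single gene under the threshold, at 0.688 RPKM. The name of FLS2, the flagellin receptor, could not be matched to a single gene.

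Regulators of RBOHF were set beside it as well. CIPK26, a kinase that binds RBOHF, had 16.9 RPKM, and its calcium sensors CBL1 and CBL9 had 21.0 and 24.7 RPKM, against 21.3 RPKM for RBOHF. OST1, the abscisic acid kinase of guard cells that phosphorylates RBOHF, had 5.77 RPKM, and RBOHF was 3.69-fold higher.

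RBOHC was compared with the root hair program. All 9 genes of the list were above 1 RPKM, with a median of 36.4 RPKM and a range of 4.81 to 240 RPKM. RBOHC at 22.2 RPKM lay between RHD6 at 24.9 RPKM and RSL4 at 17.0 RPKM, both transcription factors of hair growth. RSL2, at 36.4 RPKM, was higher than these genes and RSL1, at 4.81 RPKM, was lower. COBL9, EXPA7, EXPA18 and PRP3, genes of hair walls and tips, had 26.4, 69.0, 80.8 and 240 RPKM, so markers of hair cells were detected in these roots. FERONIA, a receptor kinase upstream of the oxidase in hairs, had 87.3 RPKM, 3.93-fold the level of RBOHC. Of the 6 genes of the ROP module, 3 lay above RBOHC and 3 below it. The small GTPase genes ROP2 and ROP4 had 66.7 and 66.5 RPKM, whereas ROP6, ROP1 and the exchange factor ROPGEF3 had 6.95, 1.28 and 3.74 RPKM. SCN1, whose product confines RBOHC activity to a single site of the hair cell, had 116.7 RPKM.

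RBOHF was compared with the Casparian strip program, in which 11 of 12 genes were above 1 RPKM and the median was 33.0 RPKM. MYB36, the transcription factor of the program, had 18.0 RPKM, and the receptor SGN3 and the kinase SGN1, which activate RBOHF, had 16.0 and 28.9 RPKM, against 21.3 RPKM for RBOHF. The genes of the strip itself were higher. CASP1 had 203 RPKM, 9.55-fold above RBOHF, and PRX64, the peroxidase of the strip, had 90.2 RPKM. CIF2, a peptide ligand of SGN3, had 223 RPKM. The gene under 1 RPKM was ESB1, a dirigent protein of the strip, at 0.181 RPKM, and AT2G28671, at 0.0873 RPKM, overlaps 84.3% of its exon length. SGN3 shares 7.89% of its exon length with AT4G20150, at 314 RPKM. The part of these overlaps in the values was not tested.

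Some enzymes that act on superoxide or hydrogen peroxide had higher levels than any RBOH gene, and others lay within the range of the family. Which of them meet the products of the oxidases was not tested. Of 8 superoxide dismutases, 7 were above 1 RPKM, and FSD1 (207 RPKM) and MSD1 (139 RPKM), the mitochondrial enzyme, led the list, whose median was 16.5 RPKM. The other 6 lay between 0.0363 RPKM (MSD2, about 4 reads) and 28.3 RPKM (CSD1), below RBOHD at 34.9 RPKM. Of 7 wall peroxidases, which use the peroxide, 6 were above 1 RPKM, with a median of 155.7 RPKM. PRX57 had 331 RPKM, 14.9-fold the level of RBOHC, and PRX33 was the lowest at 0.662 RPKM. For peroxide removal, the cytosolic ascorbate peroxidase APX1 had 126.9 RPKM, the catalase CAT1 had 7.63 RPKM and APX2 had 0.0374 RPKM, while the names of CAT2 and CAT3 could not be matched to a single gene.

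The ferric reductase oxidases (FRO) are flavocytochromes built on a like plan, which reduce iron or copper in place of oxygen. The 10 RBOH genes summed to 103.8 RPKM, against 104.9 RPKM for the 7 FRO genes matched of 8. The RBOH median was 4.98 RPKM and the FRO median 6.16 RPKM. Above 1 RPKM were 8 of 10 RBOH genes and 5 of 7 FRO genes. Like the RBOH pair of pollen tubes, FRO6 and FRO7, which are known from shoots, were low, at 0.114 and 0.0132 RPKM. No test of the difference between the families was made.

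**Figure D4:**
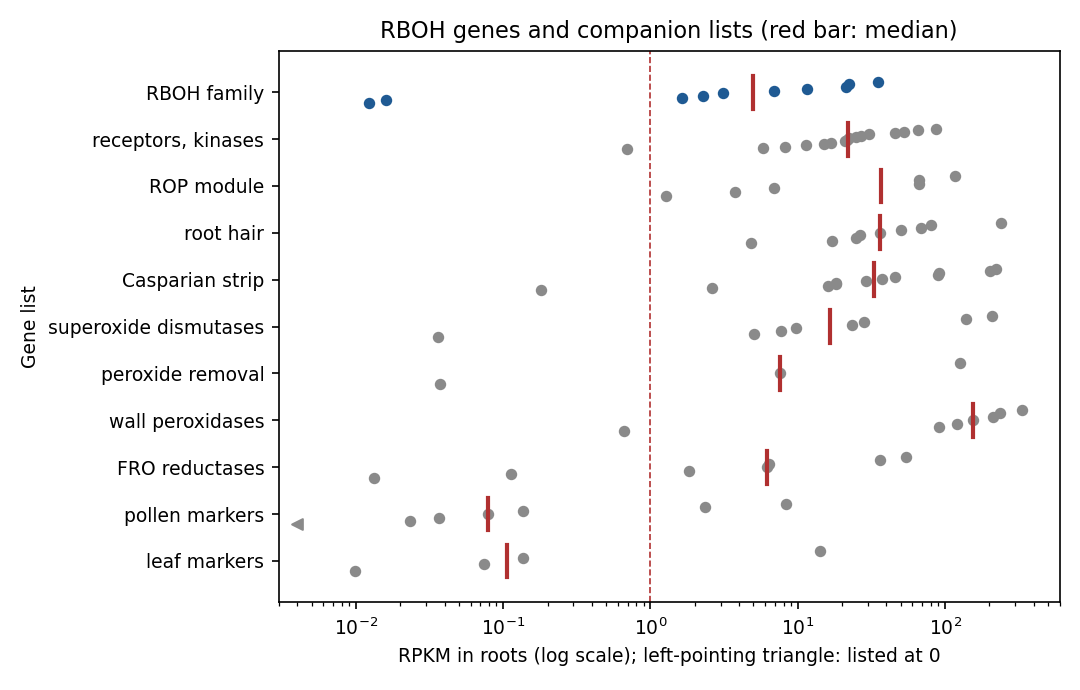
RPKM in roots on a log axis for each gene of the RBOH family (blue) and of 10 companion lists (grey), with a red bar at each median and a dashed line at 1 RPKM. The RBOH median of 4.98 RPKM lies above the medians of the pollen and leaf markers and below those of all the other companion lists.

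The levels of RBOHH (0.0159 RPKM) and RBOHJ (0.0124 RPKM) were set beside those of other genes known from pollen. Of 7 pollen markers, 2 were above 1 RPKM and the median was 0.0794 RPKM. The pectin methylesterase genes VGD1 and VGDH1 had 0.137 and 0.0365 RPKM, ACT4 and ACT12 had 0.0794 and 0.0233 RPKM, and ANX2, a receptor kinase upstream of RBOHH and RBOHJ, was listed at 0. Exceptions were ANX1 at 2.33 RPKM and TUA1 at 8.33 RPKM. Other genes overlap 7.30% of the exon length of ANX1, 30.7% of that of TUA1 and 39.55% of that of ACT12. The part of these overlaps in the values was not tested. Of 4 leaf markers, RBCS1A had 14.1 RPKM and the other 3 were between 0.00982 and 0.136 RPKM.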

How the data were processed

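Root RNA of 1 condition gave 3 single-end libraries with reads of 61 bases. The authors mapped reads to TAIR10, counted them per gene with HTSeq and computed the deposited RPKM values with edgeR. The submitters' processing notes name STAR as the aligner. The methods name TopHat2, in a sentence that follows the leaf data and may not cover the roots. Tool versions, the gene annotation, strand use in counting and how the 3 libraries became 1 column are not given in the sources used here. Names were matched to TAIR10.1 by locus identifier, symbol and synonym (32512 of 33446, 97.2%), and coordinates, lengths and sequences are those of RefSeq for TAIR10.1. Members and lists were chosen with earlier results of these data known. By rule, the text could name all members, the genes of the lists, and genes next to or overlapping a member. Reads were estimated as RPKM times exon length minus 1 base times depth. The depth estimate was tried on counts simulated with the same exon lengths that it used. Deposited values made with other lengths were not simulated. Proteins were aligned with MAFFT. The pseudocounts, thresholds, lengths and backgrounds tried are given in the closing section. With 1 column, no replicate test, fold between conditions or likeness of patterns across samples could be had. Scripts ran in Python 3.11.15 with pandas 2.3.3, numpy 2.4.6 and scipy 1.17.1, and plots were drawn in matplotlib 3.10.9.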

Additional observations from a re-analysis of the deposited data

How the results depend on the processing

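No paired analysis was possible because the 3 libraries share 1 condition and 1 column of values. Leaving out each library in turn could not be run either. The number of RBOH genes above the threshold was 8 at 0.5 RPKM, 7 at 2 RPKM, where RBOHA dropped out, and 8 after rescaling to TPM. Rescaling gave a median of 8.19 TPM for the members. Among all listed genes the median of the members stood at the percentile 59.7, against 50.5 among protein-coding genes, 59.2 among nuclear genes, 49.0 among genes above 0 RPKM and 28.1 among genes above 1 RPKM. RBOHD held 34.5% of the estimated reads of the family, against 33.6% of its RPKM. With the coding length, an alternative added after the data were seen, RBOHD had 11446 estimated reads in place of 14911, RBOHF 7147 in place of 10069, and RBOHH and RBOHJ 5 and 4. Of 9 neighbouring pairs in the order of levels, 7 then had separate counting intervals in place of 8, as RBOHC and RBOHF overlapped. A pseudocount of 1 RPKM shifted 5 of the 7 log2 ratios between close relatives by 0.1 or more. RBOHH to RBOHJ came to 0.0050, against 0.36 without one, and RBOHC to RBOHA to 3.14, against 3.76. Scaling the depth to the matched totals gave 13859 reads of RBOHD, and the longest transcript as length gave 14911.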

Other observations

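Among the wall peroxidases, PRX33 was listed at 0.662 RPKM and its close paralog PRX34 at 235.5 RPKM. Of the 61-base exon windows, 5.81% of those of PRX33 and 6.01% of those of PRX34 occur at another place of the TAIR10.1 genome, whereas none of the RBOH windows do. Such windows made up 14.1% in FRO6 and 23.3% in FRO7, and 3.12% in FRO4 and 3.05% in FRO5, which had 36.1 and 54.3 RPKM. In ROP1, at 1.28 RPKM, 60.6% of the exon length overlaps other annotated genes. The part of shared windows and overlaps in these values was not tested.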
